A study of Mus musculus with 19 samples.

Results

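The 47 genes described here are interferon-stimulated genes, a listed set of transcripts that cells are known to raise when they are exposed to interferon. They were taken by symbol from the 35498 genes to which the deposited transcripts of the series could be summed. The list was chosen with earlier results of these data known, so it is not independent of the measured values. All 47 were found, and all 47 passed the filter on low counts that left 13594 genes for testing. RNA was sequenced from 19 liver libraries of male mice, for which the labels give the genotype C57Bl/J6 and 24 weeks, in 4 treatment groups. The CTRL, CTRL+beta-Glucan and WSD groups had 5 libraries each, and the WSD+beta-Glucan group had 4. According to the series title, the beta-glucan is that of oats, a soluble cereal fibre, and fatty liver disease is the condition studied. WSD stays an abbreviation in the labels, which give no dose, transgene or other allele. Whether the libraries of a group are separate animals is not stated, so a p-value here reflects variation among libraries that may be technical. The total of estimated reads ranged from 17253823 to 23450232. The libraries titled 37 (WSD+beta-Glucan replicate 1), 39 and 40 (the first pair of CTRL+beta-Glucan) have title numbers below those of all others, which start at 52, and S numbers of 1 to 3. The library titled 52 (WSD replicate 1) has the S number 2 as well. Calls that depend on these libraries are named where they occur. Replicate numbers follow the order of the libraries in the series within each group and are not in the labels. CTRL+beta-Glucan replicate 5 is the library titled 66. Levels are given as CPM, a gene's counts scaled to a common library total, with that total adjusted by TMM factors, which assume that most genes do not change. The hepatocyte marker Alb, the albumin gene, stood at 71882 to 102052 CPM in CTRL and at 31256 to 41568 CPM in WSD.

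Interferons are cytokines of the antiviral defence. Type I interferons (alpha and beta) signal through IFNAR1 and IFNAR2, type III interferons (lambda) through IFNLR1 and IL10RB, and interferon gamma through IFNGR1 and IFNGR2, and the receptors' Janus kinases then phosphorylate STAT proteins. A STAT complex that holds STAT2 and IRF9 binds the interferon-stimulated response element (ISRE) in promoters, while STAT dimers bind the gamma-activated site (GAS). Hepatocytes, Kupffer cells, infiltrating monocytes and lymphocytes of the liver can all respond, and many of the genes also have a basal level in the absence of infection.

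Of the 47 genes, 34 had a promoter entry in the RefSeq table of GRCm38.p6. The 250 bases before each start were searched on both strands for GAAANNGAAA, the core letters of the ISRE, and for TTCNNNGAA, the core letters of the GAS. ISRE letters were present in 19 of the 34 genes (55.9%), against 3.46% of all 27025 genes in the table, and GAS letters in 9 (26.5%), against 8.13%. Since the genes are listed because interferon induces them, the share with ISRE letters describes the list and tests nothing in these livers. A match says only that the letters are there, and the searched windows come from an earlier build than the GRCm39 that the submitters named. The stretches printed here, 5′ to 3′ on the strand of the gene with the ISRE letters in capitals on whichever strand they matched (TTTCNNTTTC where on the opposite strand), belong to genes on which the results turn. The first 4 are near-identical copies in pairs, whose reads may be split between the copies.
Oas1a (chr5:120907526-120907570, minus strand): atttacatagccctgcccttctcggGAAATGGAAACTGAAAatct
Oas1g (chr5:120887614-120887656, minus strand): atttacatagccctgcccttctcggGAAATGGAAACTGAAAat
Ifit3 (chr19:34583348-34583441, plus strand): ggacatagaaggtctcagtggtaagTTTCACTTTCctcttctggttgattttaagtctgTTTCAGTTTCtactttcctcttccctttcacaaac
Ifit3b (chr19:34607744-34607837, plus strand): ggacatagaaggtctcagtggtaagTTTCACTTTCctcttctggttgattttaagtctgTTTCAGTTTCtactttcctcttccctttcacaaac
Gbp2 (chr3:142620579-142620638, plus strand): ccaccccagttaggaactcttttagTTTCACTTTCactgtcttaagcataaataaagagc
Isg15 (chr4:156200850-156200921, minus strand): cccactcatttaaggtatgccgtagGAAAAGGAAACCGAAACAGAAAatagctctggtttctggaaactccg
Slfn5 (chr11:82951922-82951981, plus strand): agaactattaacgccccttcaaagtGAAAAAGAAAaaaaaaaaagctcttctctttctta
Tgtp1 (chr11:48992289-48992348, minus strand): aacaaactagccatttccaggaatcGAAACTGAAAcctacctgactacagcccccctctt
Igtp (chr11:58199497-58199555, plus strand): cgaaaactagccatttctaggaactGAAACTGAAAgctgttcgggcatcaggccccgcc
Irgm2 (chr11:58214888-58214947, plus strand): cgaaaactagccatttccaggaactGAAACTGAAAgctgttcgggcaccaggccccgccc
The Oas1a and Oas1g stretches were identical over the 43 bases compared, and those of Ifit3 and Ifit3b over 94 bases. In Isg15, 3 overlapping matches followed one another. The Igtp and Irgm2 stretches differed at 2 of 59 bases, and that of Tgtp1 differed from Irgm2 at 20 of 60 bases around the same ISRE letters.

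In WSD livers without beta-glucan, most of the set was higher than in CTRL. Of the 47 genes, 39 rose and none fell (edgeR quasi-likelihood test, Benjamini-Hochberg adjusted p under 0.05), and 31 rose at least 2-fold. Of all 13594 tested genes, 26.0% rose in this comparison and 15.8% rose at least 2-fold. The median log2 fold change was 1.35 over the 47 genes and -0.04 over all tested genes. The libraries of both groups did not overlap for 34 of the 47 genes, all of them higher in WSD, against 20% of all tested genes. Bulk tissue cannot separate a change in the number of cells of a type from a change in RNA per cell. The scaling moved these values: with library totals alone in place of TMM factors, a setting added after the data were seen, the median of all tested genes moved by 0.47, 7874 genes were higher against 617 lower (3528 and 3680 with TMM), and 46 of the 47 genes were higher.

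**Figure D1:**
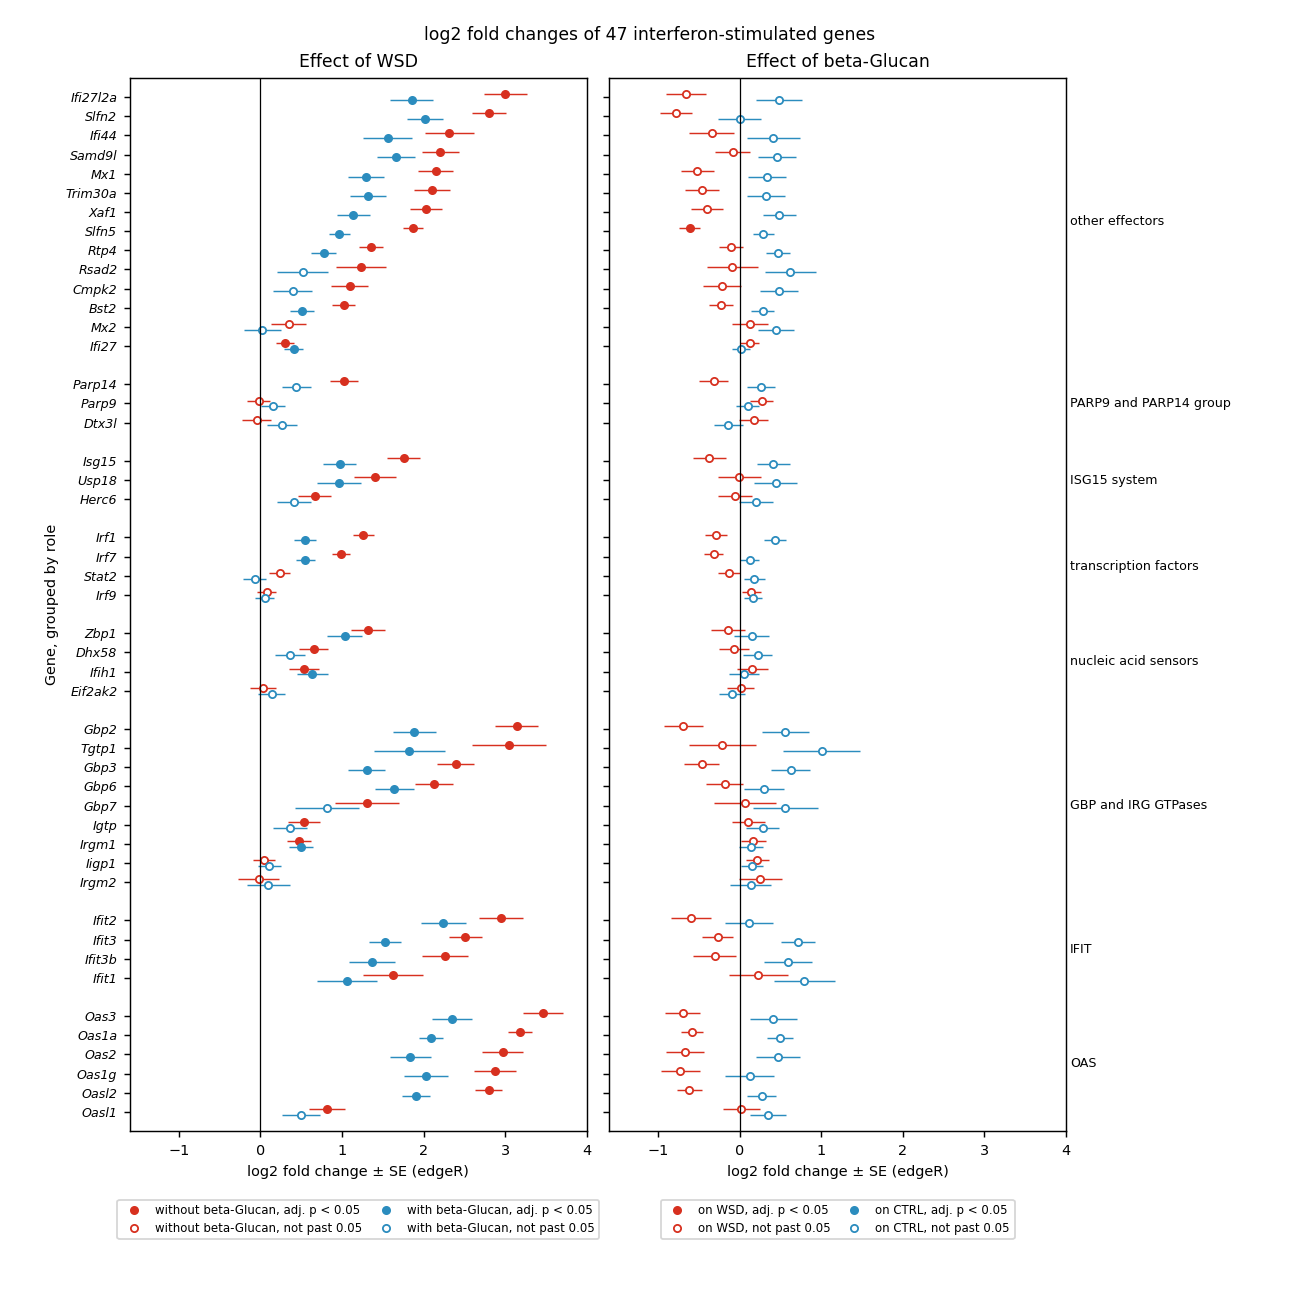
Log2 fold change ± SE of each of the 47 genes, grouped by role, with the effect of WSD on the left (red without beta-glucan, blue with it) and the effect of beta-glucan on the right (red on WSD, blue on CTRL); filled points have an adjusted p under 0.05. On the left 39 red and 31 blue points are filled, and on the right only that of Slfn5 on WSD is.

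The oligoadenylate synthetase (OAS) family sense double-stranded RNA and make the short oligoadenylates that activate RNase L. All 6 members rose in WSD, with a median log2 fold change of 2.92, the highest of the roles compared. Oas3 (ENSMUSG00000032661), the largest of the synthetases, was at 0.450, 0.609, 0.408, 0.532 and 0.412 CPM in CTRL, 0.938, 0.745, 0.541, 0.742 and 0.297 CPM in CTRL+beta-Glucan, 4.42, 5.37, 7.83, 4.58 and 4.55 CPM in WSD and 3.29, 2.76, 3.5 and 3.58 CPM in WSD+beta-Glucan. The WSD libraries lay well above the CTRL ones without overlap, replicate 3 highest, and the 4 WSD+beta-Glucan libraries lay between CTRL+beta-Glucan and WSD. The log2 fold change was 3.46 ± 0.24 (SE, adjusted p = 1.94e-09), the largest of the 47, from only 42 reads over the 5 CTRL libraries. Oas1a rose from 1.33 ± 0.374 CPM in CTRL (SD, n = 5) to 12.2 ± 0.624 CPM in WSD (SD, n = 5), a log2 fold change of 3.18 ± 0.15. Oas2 and Oas1g rose by 2.97 and 2.88 on the log2 scale, and Oasl2, a synthetase-like protein that keeps activity in mice, by 2.80. Oasl1 (ENSMUSG00000041827), which lacks synthetase activity and is known to restrain IRF7, changed less. It was at 7.59, 14.6, 11.7, 11.1 and 8.45 CPM in CTRL, 9.96, 9.12, 11.5, 14.7 and 21.9 CPM in CTRL+beta-Glucan, 15.2, 19.3, 26.5, 17 and 16.2 CPM in WSD and 18.8, 18.6, 17.6 and 21.4 CPM in WSD+beta-Glucan. Its WSD libraries all lay above those of CTRL, but CTRL+beta-Glucan replicate 5 exceeded 4 of the 5 WSD libraries. Its log2 fold change was 0.82 ± 0.22 (adjusted p = 0.00430). On a scale per length, Oasl1 had the highest mean level of the family, 5.24 TPM (transcripts scaled to a common total) in CTRL and 13.2 TPM in WSD, against 0.111 and 1.81 TPM for Oas3.

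With beta-glucan, 5 of the 6 OAS genes were lower than in WSD at an unadjusted p under 0.05, as were 7.89% of all tested genes. None passed after adjustment, while 0.302% of all tested genes fell. Oas1a was at 12.4, 11.7, 12.8, 11.3 and 12.5 CPM in WSD and at 8.29, 8.41, 7.92 and 7.62 CPM in WSD+beta-Glucan. The libraries did not overlap, and the log2 difference was -0.59 ± 0.14 (adjusted p = 0.0634). When the reads of Oas1a and Oas1g were summed (a setting added after seeing the data), the log2 difference was -0.63 ± 0.12 with an adjusted p = 0.0248. The differences of Oas1g, Oas2, Oas3 and Oasl2 were -0.73, -0.67, -0.70 and -0.62, with adjusted p-values from 0.0788 to 0.171. Oasl1 differed by 0.02 ± 0.23.

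IFIT proteins bind viral RNA, and all 4 members rose in WSD with a median log2 fold change of 2.39. Ifit3 (ENSMUSG00000074896), the most abundant per length, was at 7.25, 4.57, 6.06, 3.9 and 5.1 CPM in CTRL, 7.29, 6.64, 6.73, 9.37 and 13.7 CPM in CTRL+beta-Glucan, 26, 33.1, 36.9, 30.3 and 27.4 CPM in WSD and 31.3, 24.8, 19.3 and 26.5 CPM in WSD+beta-Glucan. Every library on WSD, with or without beta-glucan, lay above every library off it. The log2 fold change on WSD was 2.51 ± 0.20 (adjusted p = 1.14e-08). Ifit2 (ENSMUSG00000045932) showed the largest change of the family. It was at 1.86, 0.792, 1.34, 0.473 and 0.721 CPM in CTRL, 0.794, 1.06, 1.02, 1.76 and 0.890 CPM in CTRL+beta-Glucan, 5.95, 9.16, 8.74, 7.83 and 8.62 CPM in WSD and 4.17, 6.24, 5.15 and 5.73 CPM in WSD+beta-Glucan. The CTRL and CTRL+beta-Glucan libraries were all under 2 CPM, and the log2 fold change on WSD was 2.95 ± 0.27 (adjusted p = 3.53e-08). Ifit3b, a near-identical copy of Ifit3, rose by 2.26, and the summed reads of both gave 2.47 ± 0.21. Ifit1, which recognises uncapped or incompletely capped RNA, rose least, by 1.63 ± 0.37 (adjusted p = 0.00125). With beta-glucan on WSD, none of the 4 passed: Ifit2 differed by -0.60 ± 0.24 (adjusted p = 0.247), Ifit3 by -0.27 ± 0.19 and Ifit1 by 0.23 ± 0.36.

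**Figure D2:**
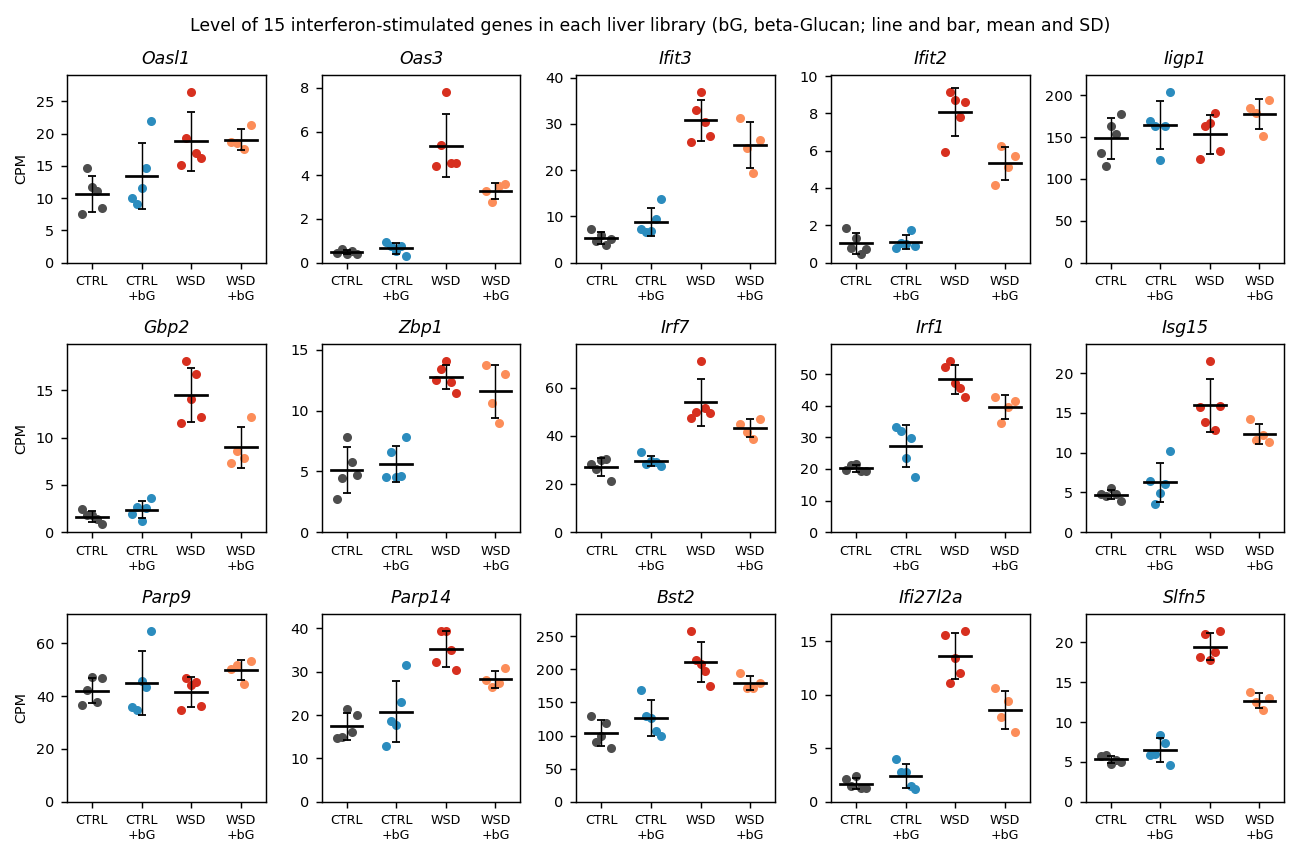
CPM of 15 of the genes in each library (points) by group, with the group mean (line) and SD (bar, n = 5, and 4 in WSD+beta-Glucan); every axis starts at 0. Oas3, Ifit3, Gbp2 and Ifi27l2a are far higher in both groups on WSD, while Iigp1 and Parp9 overlap between all 4 groups.

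The guanylate-binding proteins (GBP) and immunity-related GTPases (IRG) attack the vacuoles of intracellular pathogens, and interferon gamma is their best known inducer. Their 9 members split. Gbp2, Gbp3, Gbp6, Gbp7, Tgtp1, Igtp and Irgm1 rose in WSD, while Iigp1 and Irgm2 did not pass the test, and the median log2 fold change was 1.31. Gbp2 (ENSMUSG00000028270) was at 2.42, 1.83, 1.81, 1.36 and 0.824 CPM in CTRL, 1.88, 2.67, 1.2, 2.55 and 3.66 CPM in CTRL+beta-Glucan, 11.5, 18.1, 14.1, 16.8 and 12.2 CPM in WSD and 7.3, 8.54, 7.83 and 12.2 CPM in WSD+beta-Glucan. The WSD libraries did not overlap with CTRL, and the log2 fold change was 3.14 ± 0.26 (adjusted p = 1.71e-08). Tgtp1 rose by 3.04 ± 0.45, Gbp3 by 2.39 ± 0.23 and Gbp6 by 2.13 ± 0.24. Reads of Tgtp1 and Gbp6 may be shared with the near-identical Tgtp2 and Gbp10, and the summed pairs rose by 2.98 ± 0.35 and 2.50 ± 0.27. Iigp1 (ENSMUSG00000054072), an effector IRG and by far the most abundant of the 9 per length, was at 131, 116, 164, 154 and 177 CPM in CTRL, 169.6, 164, 123, 163 and 204 CPM in CTRL+beta-Glucan, 124, 163, 167, 178 and 133 CPM in WSD and 185, 179, 152 and 195 CPM in WSD+beta-Glucan. All 4 groups overlapped, and its log2 fold change on WSD was 0.05 ± 0.13 (adjusted p = 0.798). With library totals alone the same value was 0.51 and passed the test (adjusted p = 0.000827), while 57.9% of all tested genes were higher.

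A pair of IRG genes with nearly the same upstream sequence fell on different sides of the threshold. Igtp, whose printed stretch differs from that of Irgm2 at 2 bases, went from 21.9, 22.6, 34.5, 32.9 and 29 CPM in CTRL to 41.8, 44.9, 46.5, 42.6 and 28.6 CPM in WSD. WSD replicate 5 lay below 3 of the CTRL libraries while the other 4 lay above all of them, and the log2 fold change of 0.54 ± 0.20 (adjusted p = 0.0298) lost its call when any of 6 single libraries, WSD replicates 1 to 4 or CTRL replicates 1 and 2, was left out. Irgm2 was at 36.7, 30.04, 57.4, 55.9 and 48.2 CPM in CTRL and 41.1, 52.5, 49.8, 50.4 and 31.4 CPM in WSD. The WSD range lay within that of CTRL, and its log2 fold change was -0.02 ± 0.25 (adjusted p = 0.952). Irgm1, which like Irgm2 and Igtp belongs to the regulatory IRG proteins, rose by 0.47 ± 0.14 (adjusted p = 0.00968). Whether Igtp and Irgm2 differ from each other in response was not tested. All 7 GBP and IRG genes in the promoter table held ISRE letters and 4 held GAS letters, so the letters did not separate the gene that did not pass from the others. Between WSD+beta-Glucan and WSD, none of the 9 passed, and their median log2 difference was 0.06. Gbp2 and Gbp3 were at -0.69 ± 0.24 and -0.47 ± 0.22, and Igtp, Irgm1, Irgm2 and Iigp1 at 0.11, 0.16, 0.25 and 0.21.

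Of the 4 nucleic acid sensors, 3 rose in WSD, with a median log2 fold change of 0.59 over the 4. Zbp1 (ENSMUSG00000027514), a sensor of Z-form nucleic acid that can start necroptosis, was at 2.76, 4.45, 7.81, 5.8 and 4.69 CPM in CTRL, 4.55, 6.58, 4.56, 4.64 and 7.81 CPM in CTRL+beta-Glucan, 12.5, 13.4, 14.1, 12.3 and 11.5 CPM in WSD and 13.8, 10.6, 8.96 and 13 CPM in WSD+beta-Glucan. The WSD libraries lay above all CTRL libraries within a narrow range, and the log2 fold change was 1.32 ± 0.21 (adjusted p = 2.76e-05). Dhx58 and Ifih1, cytosolic sensors of viral RNA, rose by 0.65 ± 0.18 and 0.54 ± 0.18, the latter with an adjusted p = 0.0194 that became 0.0504 without WSD replicate 3. Eif2ak2, the kinase PKR that halts translation, was at 8.6 to 12.1 CPM in CTRL and 9.13 to 12.8 CPM in WSD, a log2 fold change of 0.03 ± 0.16. With beta-glucan on WSD, the 4 sensors lay close to 0 on the log2 scale, from -0.14 for Zbp1 to 0.15 for Ifih1, and none passed.

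Among the transcription factors, Irf1 and Irf7 rose and Stat2 and Irf9 did not pass. Irf1 (ENSMUSG00000018899), an early target of interferon gamma, was at 19.5, 21.1, 21.7, 19.3 and 19.3 CPM in CTRL, 33.3, 32.1, 23.5, 29.6 and 17.5 CPM in CTRL+beta-Glucan, 52.1, 54.1, 47.3, 45.5 and 42.8 CPM in WSD and 42.8, 34.4, 39.6 and 41.5 CPM in WSD+beta-Glucan. The CTRL libraries were tightly grouped, the CTRL+beta-Glucan libraries spread widely with replicate 5 at the bottom, and the WSD libraries lay above both. The log2 fold change on WSD was 1.26 ± 0.13 (adjusted p = 1.86e-07). Irf7 (ENSMUSG00000025498), the main inducer of interferon alpha genes, was at 28.5, 26.1, 30.2, 30.2 and 21.1 CPM in CTRL, 33.2, 28.5, 29.5, 29.1 and 27.7 CPM in CTRL+beta-Glucan, 47.6, 49.99, 71.1, 51.6 and 49.6 CPM in WSD and 45.2, 41.7, 38.9 and 47.1 CPM in WSD+beta-Glucan. WSD replicate 3 stood out, and all WSD libraries exceeded all libraries of the other 3 groups. Its log2 fold changes were 0.99 ± 0.11 on WSD (adjusted p = 5.59e-07) and -0.32 ± 0.12 with beta-glucan on WSD (adjusted p = 0.197). Stat2 and Irf9, both part of the ISRE-binding complex, differed by 0.24 ± 0.13 (adjusted p = 0.127) and 0.07 ± 0.11 (adjusted p = 0.594). Stat2 passed when CTRL replicate 2 (0.33) or CTRL replicate 3 (0.34) was left out.

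The ISG15 system rose as a whole. Isg15 (ENSMUSG00000035692), a ubiquitin-like protein that is attached to other proteins, was at 4.84, 4.57, 5.54, 4.85 and 3.86 CPM in CTRL, 6.42, 3.6, 4.99, 6.07 and 10.2 CPM in CTRL+beta-Glucan, 15.7, 13.9, 21.5, 12.8 and 15.9 CPM in WSD and 14.2, 11.6, 12.2 and 11.4 CPM in WSD+beta-Glucan. All WSD libraries exceeded all CTRL ones, and CTRL+beta-Glucan replicate 5 stood above its own group. The log2 fold change was 1.76 ± 0.20 (adjusted p = 6.52e-07). Usp18, which removes ISG15 and dampens the type I receptor, rose by 1.41 ± 0.26, and Herc6, the mouse ligase for ISG15, by 0.67 ± 0.20. On WSD, the differences with beta-glucan were -0.37 ± 0.20, -0.01 ± 0.26 and -0.06 ± 0.21, none past the threshold.

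Of the PARP9 and PARP14 group, only Parp14 rose. Parp14 (ENSMUSG00000034422), a mono-ADP-ribosyltransferase, was at 14.7, 14.9, 21.4, 16 and 20.03 CPM in CTRL, 12.8, 18.6, 17.7, 22.9 and 31.6 CPM in CTRL+beta-Glucan, 32.2, 39.4, 39.5, 35 and 30.4 CPM in WSD and 28.1, 26.5, 27.3 and 31 CPM in WSD+beta-Glucan. Its WSD libraries did not overlap with CTRL, and the log2 fold change was 1.02 ± 0.17 (adjusted p = 6.51e-05). Parp9 (ENSMUSG00000022906), the partner of the ubiquitin ligase Dtx3l and its neighbour in the genome, was at 36.6, 42.4, 47.1, 38 and 46.7 CPM in CTRL, 35.9, 34.9, 45.7, 43.4 and 64.8 CPM in CTRL+beta-Glucan, 34.9, 46.9, 44.4, 45.5 and 36.1 CPM in WSD and 50.3, 51.8, 44.5 and 53.3 CPM in WSD+beta-Glucan. All 4 groups overlapped, with CTRL+beta-Glucan replicate 5 highest, and the log2 fold change on WSD was -0.02 ± 0.14 (adjusted p = 0.914). Dtx3l differed by -0.05 ± 0.17 (adjusted p = 0.835).

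Of the 14 other effectors, 13 rose, at a median of 1.95 on the log2 scale, and Mx2, a dynamin-like GTPase, did not pass at 0.35 ± 0.21 (adjusted p = 0.180), although it did (0.58) without CTRL replicate 2. Bst2 (ENSMUSG00000046718), the tetherin that holds budding virus at the cell surface, was the most abundant of the 47 genes per length, with 166 TPM in CTRL and 470.1 TPM in WSD. It was at 129, 90.2, 99.6, 119 and 80.8 CPM in CTRL, 169, 129, 127, 107 and 98.8 CPM in CTRL+beta-Glucan, 258, 214, 208, 198 and 175 CPM in WSD and 194, 172, 172 and 179 CPM in WSD+beta-Glucan. WSD lay above CTRL without overlap, and CTRL+beta-Glucan replicate 1 was close to the lowest WSD library. The log2 fold change was 1.02 ± 0.14 (adjusted p = 6.71e-06). Ifi27l2a (ENSMUSG00000079017), a small protein of the ISG12 family, was at 2.08, 1.46, 2.39, 1.3 and 1.24 CPM in CTRL, 3.97, 2.79, 2.76, 1.44 and 1.19 CPM in CTRL+beta-Glucan, 15.5, 11.1, 13.5, 12 and 16 CPM in WSD and 10.6, 7.9, 9.39 and 6.53 CPM in WSD+beta-Glucan. The WSD+beta-Glucan libraries were all below WSD and all above CTRL+beta-Glucan, and the log2 fold change on WSD was 3.0 ± 0.26 (adjusted p = 2.71e-08). Slfn2, of the Schlafen family of immune regulators, rose by 2.80 ± 0.21, Ifi44 by 2.32 ± 0.30, Samd9l by 2.20 ± 0.23, Mx1 by 2.15 ± 0.21, Trim30a by 2.10 ± 0.22 and Xaf1 by 2.03 ± 0.20. Rtp4, Rsad2 (viperin) and Cmpk2 rose by 1.35, 1.23 and 1.09. The relative of Ifi27l2a, Ifi27, rose only by 0.30 ± 0.11 (adjusted p = 0.0257), and this call was lost without WSD replicate 3 or CTRL replicate 5 (adjusted p = 0.0643 and 0.0623).

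Slfn5 (ENSMUSG00000054404), a Schlafen protein of the nucleus, was the single gene of the 47 that passed in a comparison about beta-glucan. It was at 5.68, 5.91, 4.78, 5.26 and 4.94 CPM in CTRL, 5.92, 6.02, 8.41, 7.42 and 4.65 CPM in CTRL+beta-Glucan, 18.1, 21.1, 17.8, 18.8 and 21.5 CPM in WSD and 13.8, 12.5, 11.5 and 13.1 CPM in WSD+beta-Glucan. The WSD+beta-Glucan libraries lay below every WSD library and above every library off WSD. The log2 fold change was 1.87 ± 0.13 on WSD (adjusted p = 1.17e-09) and -0.62 ± 0.13 with beta-glucan on WSD (adjusted p = 0.0328). The call was lost, with values from -0.57 to -0.69, without any 1 of the WSD+beta-Glucan replicates 1 to 4 or of WSD replicates 1, 2 and 5, without the 3 libraries titled 37, 39 and 40 (adjusted p = 0.0515), without these and the library titled 52 (a setting added after seeing the data, -0.69, adjusted p = 0.0869), and with an offset for transcript length (adjusted p = 0.0719).

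Genes with a higher level off WSD tended to change less on WSD. To keep the level apart from the comparison, it was read in CTRL+beta-Glucan, which the comparison of WSD with CTRL does not use. Of the 12 genes at or above 10 TPM there, 7 rose and 3 of these at least 2-fold (Irf1, Isg15 and Bst2), with a median log2 fold change of 0.39. Of the 35 genes below 10 TPM, 32 rose and 28 of these at least 2-fold, with a median of 2.10. The 3 that did not pass although below the line were Eif2ak2 at 2.9 TPM, Mx2 at 3.37 TPM and Dtx3l at 6.84 TPM. The Spearman correlation between level and log2 fold change was -0.72 across the 47 genes. It was -0.44 across all tested genes, of which 2.23% at or above 10 TPM and 23.6% below it rose at least 2-fold, so the direction is shared with the rest of the liver transcriptome. These values are descriptions across genes that share the same libraries.

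**Figure D3:**
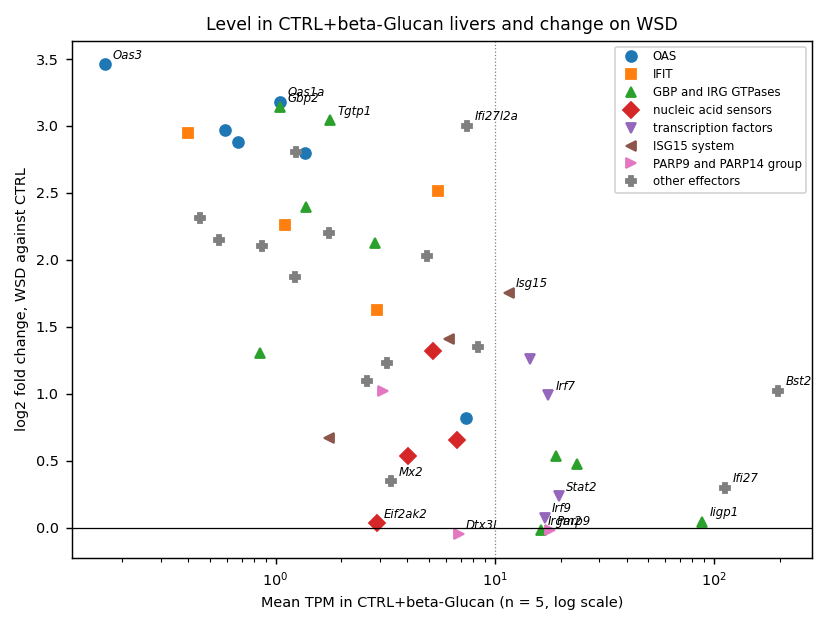
Mean TPM of each of the 47 genes in CTRL+beta-Glucan (n = 5, log scale) against its log2 fold change in WSD against CTRL, with marks by role and a dotted line at 10 TPM. Most points left of the line lie above 1, and of the 12 genes right of it only Irf1, Isg15 and Bst2 lie at or above 1.

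With beta-glucan on WSD, most of the set lay slightly below its level on WSD alone, and a single gene passed. Besides Slfn5, 14 genes were lower at an unadjusted p under 0.05 and none was higher, which with Slfn5 makes 15 of 47 (31.9%) against 7.89% of all tested genes. The median log2 difference was -0.21 over the 47 genes and 0.01 over all tested genes. Of the 47, 33 lay below 0 and 14 above it, against 52.4% of all tested genes above 0. The medians by role ran from -0.64 for the OAS genes and -0.29 for both the IFIT genes and the other effectors to -0.03 for the sensors, 0.06 for the GBP and IRG genes and 0.17 for the PARP group. No test between roles was made. The libraries did not overlap for 9 genes, all lower with beta-glucan (Oas1a, Oas2, Oas3, Oasl2, Irf7, Ifi27l2a, Slfn2, Slfn5 and Trim30a), against 4.83% of all tested genes. Slfn2 was at 14.2, 11.8, 13.2, 14.3 and 13 CPM in WSD and at 7.35, 6.92, 10.2 and 6.4 CPM in WSD+beta-Glucan, the largest difference of the set at -0.78 ± 0.20 (adjusted p = 0.0810). Other tools called more of the genes, all lower: 6 with DESeq2, 9 with limma-voom and 7 when only the libraries of both groups were fitted, while the number was 0 without the 3 libraries titled 37, 39 and 40, also when that titled 52 was left out with them. In the main fit 0.302% of all tested genes were lower, and the shares under these other settings are not given here. Whether these counts are particular to the set therefore cannot be read from them.

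Markers of several cell types rose on WSD along with the set. In WSD against CTRL all 10 monocyte and macrophage markers rose, at a median of 2.69 on the log2 scale, and their summed level was 42.5 to 114 CPM in CTRL and 597 to 746 CPM in WSD, against 39.6 to 135 CPM and 354 to 433 CPM in the same groups with beta-glucan. With beta-glucan on WSD none of the 10 passed, and their median difference was -0.86. With library totals alone, where 283 of all tested genes were lower, Cd68, Mpeg1, Ccr2, Itgam and Cd14 were lower. Their adjusted p-values ran from 0.0230 to 0.0493, and the rest of the 10 did not pass. None of the 10 was at 0 in any library. Of the T and NK cell markers, 7 of 9 tested rose on WSD with a median of 2.30, and their summed level was 1.72 to 3.49 CPM in CTRL and 6.4 to 16.8 CPM in WSD. Of 5 Kupffer cell markers 3 rose with a median of 1.53, and the sum was 46.5 to 142 CPM in CTRL and 333 to 563 CPM in WSD. Of the plasmacytoid dendritic cell markers, known for interferon alpha production, only 2 of 6 had enough reads for a test, both higher on WSD, and the other 4 were at 0 in some libraries. Of 4 B cell markers 1 rose, and of 3 tested neutrophil markers none. Stellate cell markers rose in 4 of 5 cases, endothelial markers in 3 of 5 and cholangiocyte markers in 2 of 5. Of all 13594 tested genes, 26.0% rose in this comparison. The marker counts depended on the scaling. With library totals alone, 57.9% of all tested genes were higher. So were 8 of 9 T and NK cell, 4 of 5 endothelial, 4 of 5 cholangiocyte and 2 of 3 neutrophil markers. The counts of the other marker lists stayed the same. Of the 5 hepatocyte markers found, 4 fell. The part of these cells in the change of the 47 genes was not tested.

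Off WSD, beta-glucan left the set without a call. In CTRL+beta-Glucan against CTRL none of the 47 genes passed with edgeR, DESeq2 or limma-voom, and 1 gene of 13594 (0.00736%) did in edgeR. At an unadjusted p under 0.05, 9 genes were higher and none lower, against 2.86% of all tested genes higher. They were Oas1a, Ifit1, Ifit3, Gbp3, Tgtp1, Irf1, Rtp4, Slfn5 and Xaf1. The median log2 difference was 0.32, against 0.00 over all tested genes, and 45 of 47 genes lay above 0, against 50.8% of all tested genes. Ifit3, with the smallest edgeR p-value of the set, differed by 0.71 ± 0.21 (adjusted p = 0.788). Without CTRL+beta-Glucan replicate 5 the median was 0.17 and 39 genes lay above 0.

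That replicate stood apart for most of the set. CTRL+beta-Glucan replicate 5 held the highest value of its group for 32 of the 47 genes (68.1%), against 24.9% of all tested genes, and was over 1.5 times the mean of the other 4 libraries for 27 of the 47, against 5.99% of all tested genes. Ifit1 was at 2.38, 4.16, 3.48, 6.03 and 12.7 CPM in the 5 libraries, replicate 5 last, 3.15 times the mean of the others. Usp18 was at 5.99, 6.08, 6.19, 8.35 and 19.4 CPM, 2.92 times. Rsad2 was at 3.97, 7.63, 5.71, 9.97 and 19.4 CPM, 2.84 times, and this exceeded every WSD library, which reached 9.36 to 17.2 CPM. All 9 GBP and IRG genes, all 4 sensors and all 3 genes of both the ISG15 system and the PARP group had their group's highest value there, Irgm2 with 31.5, 39.8, 38.3, 62.1 and 77.5 CPM among them. The same library held the lowest value of its group for 9 of the 47 (19.1%), no more than the 24.5% of all tested genes that were lowest there. They were Oas1g, Oas2, Oas3, Irf1, Irf7, Bst2, Ifi27l2a, Slfn2 and Slfn5. Oas3 was at 0.40 and Ifi27l2a at 0.43 times the mean of the other 4. The summed macrophage markers were also lowest in that library, 39.6 CPM against 67.6 to 135 in the other 4, with Csf1r at 39.3, 32.2, 23.7, 17.8 and 7.71 CPM and Cd68 at 9.02, 6.58, 4.68, 3.15 and 1.58 CPM. The relation of these values to each other was not tested. In WSD, replicate 3 held the highest value for 23 of the 47 genes (48.9%), against 18.4% of all tested genes. Single libraries led in the other groups too. In WSD+beta-Glucan, replicate 3 was lowest for 27 of the 47 (57.4%, against 26.4%) and replicate 4 highest for 21 (44.7%, against 25.9%). In CTRL, replicate 3 was highest for 20 (42.6%, against 18.9%).

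**Figure D4:**
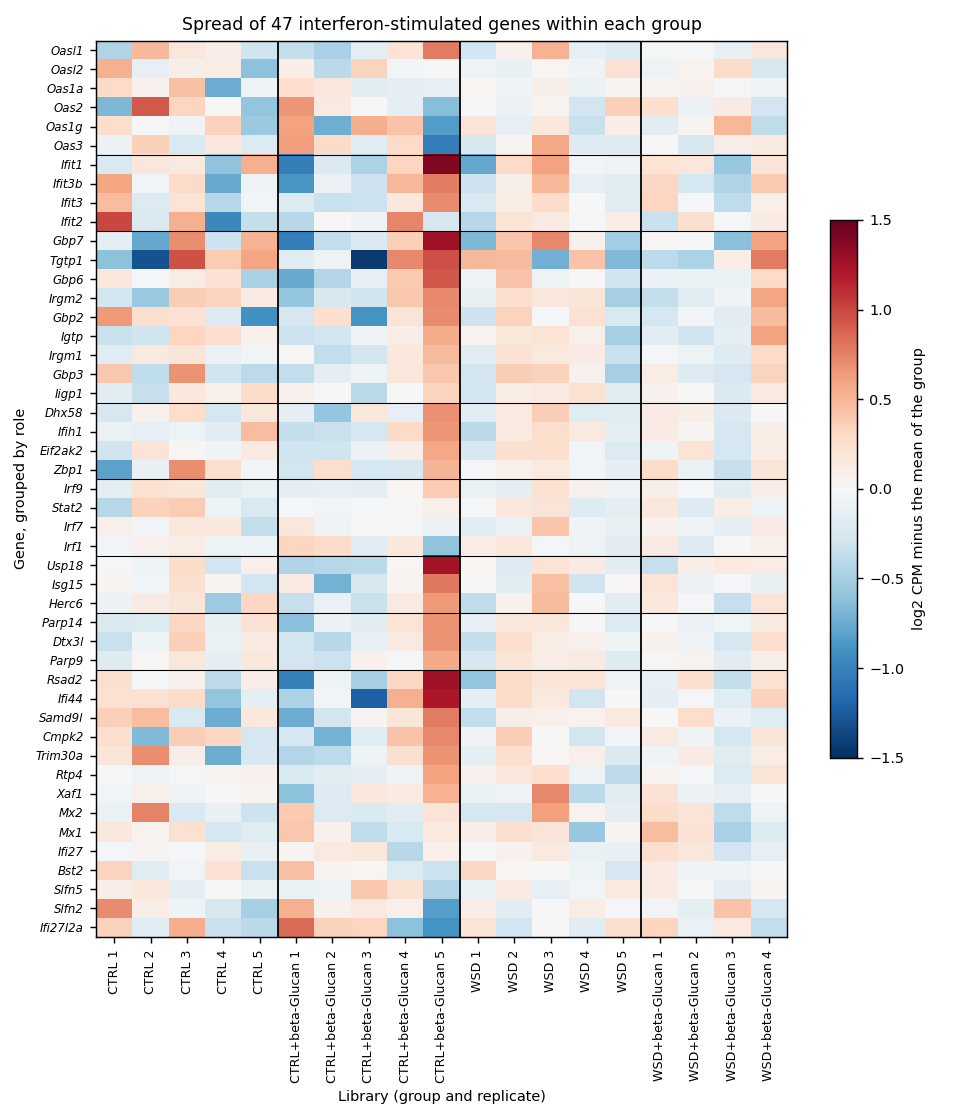
Difference of each gene's log2 CPM from the mean of its group in every library, with genes grouped by role and libraries by group, red above and blue below the mean. The column of CTRL+beta-Glucan replicate 5 is red for most genes, all 9 GBP and IRG genes included, and blue for Oas3, Irf1, Slfn2 and Ifi27l2a.

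With beta-glucan in both groups, most of the set was again higher on WSD. In WSD+beta-Glucan against CTRL+beta-Glucan 31 of the 47 genes rose and none fell, 21 at least 2-fold, against 19.1% and 11.5% of all tested genes, and the median log2 fold change was 0.96. The libraries did not overlap for 26 of the 47, against 14.4% of all tested genes. These libraries are not used in WSD against CTRL, so the levels in both comparisons are separate measurements. The scaling and the estimate of the spread came from 1 fit over all 19 libraries, so p-values and calls are not fully separate. All 31 genes had also risen without beta-glucan. The 8 that passed without it but not with it were Oasl1, Gbp7, Igtp, Dhx58, Herc6, Parp14, Rsad2 and Cmpk2. Each had its highest CTRL+beta-Glucan value in replicate 5, and without that library 41 of the 47 rose (18.2% of all tested genes), these 8 and Parp9 and Dtx3l among them. Rsad2 then stood at 0.97 ± 0.23 (adjusted p = 0.00388) in place of 0.52 ± 0.31 (adjusted p = 0.214). The largest changes in all libraries were those of Oas3 (2.35 ± 0.25), Ifit2 (2.24 ± 0.27) and Oas1a (2.09 ± 0.15). Ifit1 rose by 1.06 ± 0.37 (adjusted p = 0.0328), a call that was lost when any 1 of 7 of the 9 libraries was left out, all but replicate 3 of WSD+beta-Glucan and replicate 5 of CTRL+beta-Glucan. Without the 3 libraries titled 37, 39 and 40, 28 of the 47 genes rose, and Ifit1, Ifih1 and Irgm1 lost their calls at 0.67 (adjusted p = 0.243), 0.39 (adjusted p = 0.179) and 0.40 (adjusted p = 0.111). With the library titled 52 left out as well, 26 rose, and Usp18 and Ifi27 also lost their calls. The shares of all tested genes that rose without these libraries are not given here. Whether the lower counts are particular to the set therefore cannot be read from them.

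Compared gene by gene, the change on WSD was smaller with beta-glucan for 39 of the 47 genes (83.0%). The share of all tested genes with a smaller change was not counted, and their median difference between both changes was 0.01. Among genes picked for rising in WSD against CTRL, the change was smaller with beta-glucan for 36 of the 39 in the set and for 85.5% of all 3528. Picking genes on the first change favours a smaller second one. These shares therefore cannot tell whether the smaller change is particular to the set. The exceptions among the 47 were Iigp1, Irgm1, Irgm2, Ifih1, Eif2ak2, Parp9, Dtx3l and Ifi27, of which none changed by more than 0.64 on the log2 scale in either comparison. When the difference between both beta-glucan effects was tested, none of the 47 genes passed, against 0.00736% of all tested genes. At an unadjusted p under 0.05, 22 were lower and none higher (46.8% against 6.82% of all tested genes lower), and the median was -0.58. The smallest unadjusted p-values were those of Oas1a, with a difference of -1.09 ± 0.21 (adjusted p = 0.115), and Slfn5, with -0.90 ± 0.18 (adjusted p = 0.115). DESeq2 called 4 genes (Oas1a, Oasl2, Irf1 and Slfn5), limma-voom none. Without CTRL+beta-Glucan replicate 5, 3 were called (Oas1a, Irf1 and Slfn5, all with negative differences). The shares of all tested genes called under these other settings are not given here. Whether these calls are particular to the set therefore cannot be read from them. Both effects that enter this difference share the WSD and CTRL libraries with the comparisons given before, and it adds no independent measurement.

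The interferons themselves were barely detected. Of 10 ligand genes looked up, 7 had no read in any of the 19 libraries and none had enough reads for a test. Ifnb1 had 2 reads in all WSD libraries together and 0 in CTRL, and Ifng had 1 read in CTRL and 13 in WSD, with 2 and 6 in the same groups with beta-glucan. At this depth a change in the ligands could not be tested. Among the 6 receptor genes 4 rose and 1 fell on WSD. Ifngr1 and Ifngr2, the interferon gamma receptor, rose by 0.89 ± 0.10 and 0.59 ± 0.11, while Ifnar2, of the type I receptor, fell by 0.25 on the log2 scale (adjusted p = 0.00486) and Ifnar1 was at -0.16 ± 0.08 (adjusted p = 0.110). With library totals alone all 6 receptor genes were higher, Ifnar2 by 0.22 and Ifnar1 by 0.31, so the direction of both depends on the scaling. Il10rb, shared by the receptors of interferon lambda and interleukin 10, was at 7.2, 5.79, 5.66, 5.32 and 6.03 CPM in CTRL, 6.78, 6.83, 8.89, 7.05 and 5.09 CPM in CTRL+beta-Glucan, 22.2, 21.3, 20.1, 20.7 and 25.7 CPM in WSD and 14.4, 14.7, 14.2 and 11.8 CPM in WSD+beta-Glucan. It rose by 1.87 ± 0.12 on WSD and its log2 difference with beta-glucan on WSD was -0.68 ± 0.12 (adjusted p = 0.0261). The latter call was lost when any 1 of 6 libraries was left out (replicates 1, 2 and 4 of WSD+beta-Glucan, and 1, 2 and 5 of WSD), with an adjusted p of up to 0.146.

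Of the receptor kinases, Jak2 rose by 0.33 ± 0.10, while Jak1 and Tyk2 were at 0.01 and 0.17 and did not pass. Of 5 feedback inhibitors 3 rose and 1 fell. Socs1, the inhibitor of Janus kinases, rose by 2.76 ± 0.50 from low counts (10 reads over the CTRL libraries), and Trim24 was the one that fell. With beta-glucan in both groups, 0 of the 5 feedback inhibitors rose on WSD and 1 fell, with Socs1 at 0.08 ± 0.47 (adjusted p = 0.918). In WSD against CTRL, of 13 tested genes that sense nucleic acid and induce interferon, 9 rose and 1 (Mavs) fell, with Tmem173, which encodes STING, at 2.53 ± 0.27. Of 32 tested genes among 34 other interferon-inducible genes, 27 rose and 1 (Lgals9) fell, with a median log2 fold change of 1.08. The chemokine genes Cxcl9 and Cxcl10, induced by interferon gamma and by all interferons, rose by 3.53 ± 0.24 and 3.21 ± 0.23. With library totals alone none of Trim24, Mavs and Lgals9 fell, and their values were -0.29, -0.02 and 0.19. With beta-glucan on WSD, none of the kinases, feedback inhibitors, sensing genes and other inducible genes passed the threshold. With library totals alone Ikbke, Irf5, Gbp5 and Cxcl10 were lower, with adjusted p-values from 0.0162 to 0.0394, and the rest did not pass.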

How the data were processed

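Liver mRNA was sequenced from 19 libraries in 4 treatment groups, taken from the labels. Per the labels' protocols, a PureLink kit gave the total RNA for TruSeq Stranded mRNA libraries. The submitters' processing notes name Salmon 1.10.1, GRCm39 and DESeq2 1.38.3 with no role for the last. The authors deposited, per transcript, estimated counts, TPM and an effective length (the other numeric column). Salmon shares reads between similar transcripts, so near-identical genes are uncertain.

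From these, estimated counts were summed per gene by transcript ID (GENCODE M21, used for symbols only; 99.51% matched) and rounded. The main test was edgeR 4.0.16 (quasi-likelihood, TMM, filterByExpr, 1 mean per group fitted over all 19 libraries), with Benjamini-Hochberg adjustment over all 13594 tested genes in each comparison. A call is an adjusted p under 0.05, an SE is the log2 fold change divided by the root of its F, and TPM were used only to compare levels between genes. DESeq2 1.42.0 and limma 3.58.1 were alternatives, beside other scalings, filters, an offset for length, sets of libraries and each library left out. The 47 genes, roles and lists were chosen with earlier results of these data known. Values in every library are given, by rule, for the gene of each role with the highest mean TPM, the one with the largest called change on WSD, and any called in a beta-glucan comparison. A few others, among them Slfn2, Oas1a, Igtp, Irgm2, Ifit1, Usp18, Rsad2 and Il10rb, were chosen after their values were seen. A further item is not reported here.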

Additional observations from a re-analysis of the deposited data

Results flagged for a closer look

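In 60 checks, 15 genes in each of the 4 groups, a single library lay far from the others of its group 3 times, about what chance gives at 1 in 20. In WSD, replicate 3 was highest at 7.83 CPM for Oas3 and at 71.1 CPM for Irf7. In CTRL+beta-Glucan, replicate 4 was highest at 1.76 CPM for Ifit2.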

How the results depend on the processing

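In WSD against CTRL, 36 to 40 of the 47 genes rose with each library left out in turn and 37 to 46 under the other settings. In WSD+beta-Glucan against CTRL+beta-Glucan the numbers were 29 to 41 and 26 to 42, and in CTRL+beta-Glucan against CTRL 0 throughout. In WSD+beta-Glucan against WSD the number of genes called, 1, was 6 with DESeq2, 9 with limma-voom, 7 with only the groups compared, 0 with the length offset, 0 without the 3 libraries titled 37, 39 and 40, 0 without these and that titled 52, 4 with a term for the 3, 6 with library totals alone, 2 with near-identical pairs summed, and 0 to 4 with each library left out (4 without CTRL replicate 1, 3 without CTRL+beta-Glucan replicate 5, 2 without CTRL+beta-Glucan replicate 1 or CTRL replicate 4, and 0 without WSD+beta-Glucan replicate 1, 2 or 4 or WSD replicate 1, 2 or 5). For the difference between both beta-glucan effects, 0 became 4 with DESeq2, 1 with library totals alone and 0 to 3 with each library left out (3 without CTRL+beta-Glucan replicate 5). Pairs summed, library totals and the 4 libraries left out together were chosen after seeing the data. With library totals alone, 283 of all tested genes were lower in WSD+beta-Glucan against WSD, against 41 with TMM. For most other settings the shares of all tested genes are not given here. The counts of the set under those settings cannot show what is particular to it.

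On WSD without beta-glucan, values near 0 changed sign. Irgm2 and Parp9 were at 0.017 and 0.017 with RLE size factors, 0.016 and 0.015 with DESeq2, 0.025 and 0.023 with only the groups compared, and 0.44 and 0.45 with library totals alone, where Dtx3l was at 0.42. Without the 4 libraries titled 37, 39, 40 and 52, Irgm2, Parp9 and Dtx3l were at 0.027, 0.050 and 0.045. With each library left out, Irgm2 ranged from -0.138 to 0.087, Parp9 from -0.067 to 0.039, Dtx3l from -0.124 to 0.050, Eif2ak2 from -0.034 to 0.093 and Iigp1 from -0.032 to 0.117. The cause was not tested. No paired analysis was possible because the labels give no replicate numbers. Oas3, Ifit2 and other genes with few reads in CTRL have fold changes limited by depth.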
